A study of Arabis alpina with 18 samples.

Results

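A group of 77 genes of Arabis alpina, of 34220 in the count table, was at least 2-fold higher at 5 than at 3 weeks in shoot apices of the eop055 mutant and at most 25% higher in apices of the pep1-1 mutant. Each fold was the ratio of group means in CPM (counts per 1000000 gene counts of the library) with 1 CPM added to both; this understates the change of scarce genes, and the mean in eop055 at 5 weeks had to reach 3 CPM. The 3 thresholds were met by 84 genes, and 7 of them were left aside as named floral loci (AP1, LFY, PI, AP3, SEP4, SPL8 and REM22), described here only for comparison. The members were chosen by the values of the 12 apex libraries, so everything on apices is a description with no test. Leaf libraries took no part in the choice.

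A. alpina is a perennial relative of Arabidopsis. Its FLC ortholog PEP1 represses flowering, and TOE2, named in the title of the series, encodes a floral repressor related to AP2. The groups, of 3 libraries each, were eop055 apices at 5 weeks, eop055 apices at 3 weeks, pep1-1 apices at 5 weeks, pep1-1 apices at 3 weeks, and leaves 5 and 6 of eop055 and of pep1-1 at 5 weeks. The accession was Pajares throughout, under long days. The labels call the genotypes eop055 mutant and pep1-1 mutant; the labels give neither the lesion of eop055 nor whether it also carries pep1-1. The labels do not tie replicates to separate plants or pools. The p-values come from 1 fit of all 18 libraries. They thus reflect the spread among leaf and apex libraries together, which may be technical.

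As plants gain competence to flower, the shoot apex turns from leaf production to an inflorescence, and inflorescence and floral meristems switch on meristem identity genes, then organ identity genes. In Arabidopsis the floral transition also involves sugar transport to the apex, cytokinin activation and auxin distribution. An apex sample is a mixture of meristem, young leaves and stem, so a higher share of cells of a type and more RNA per cell cannot be told apart here.

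Each library held between 7987096 and 14132723 gene counts. Names were available only for genes on the authors' deposited lists of changed genes, and 52 of the 77 members carried an Arabidopsis locus there. Another 10 were listed without a locus, and 15 were on no list. TOE2 and FLC loci were paired with 0 and 0 genes, so the genotypes could not be checked against a targeted gene. Organ polarity, cell division, leaf photosynthesis and anther lists had 0 named genes each, so the tissue labels were not checked against those markers. Scaling by TMM, which allows for differences in composition, lowered the median log2 change with age over all genes by 0.11 in both genotypes (from CPM values of 0.12 in eop055 and 0.11 in pep1-1). With TMM the folds of the members with age ran between 1.84 and 4.67 in eop055 and between 0.250 and 1.15 in pep1-1, and 52 of the 77 remained at 2-fold or more in eop055.

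**Figure D1:**
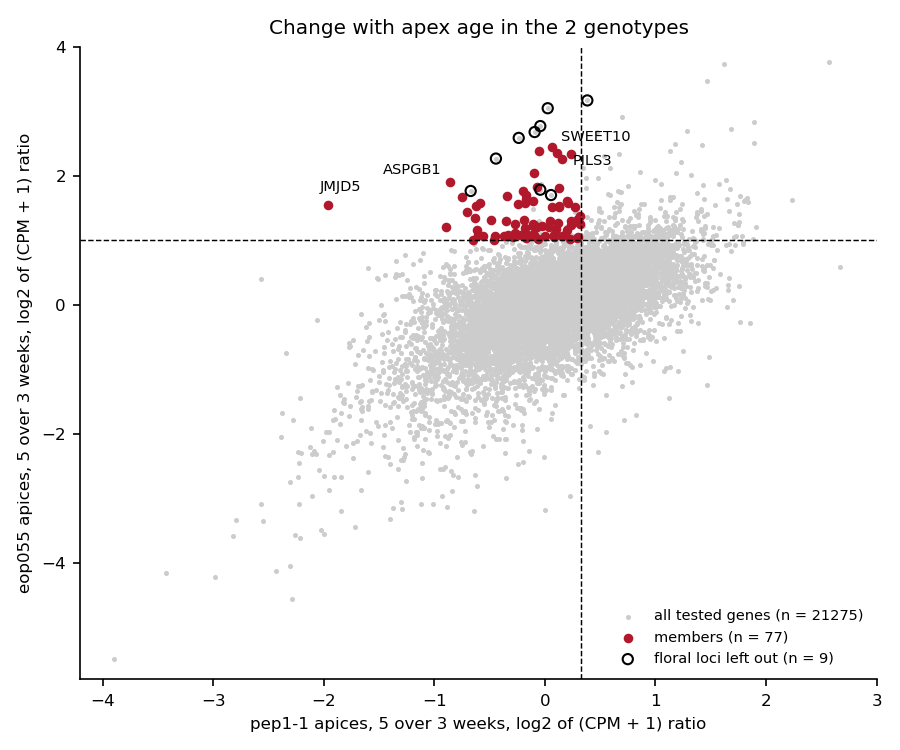
Change with apex age in pep1-1 (x axis) and eop055 (y axis), each as the log2 ratio of (CPM + 1) at 5 over 3 weeks, for the 21275 genes tested (grey), the 77 members (red) and 9 floral loci left aside (open circles); dashed lines mark the 2 fold thresholds. SWEET10 at 5.44-fold in eop055 is the uppermost member, and JMJD5, 0.257-fold in pep1-1, lies far to the left of the others.

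The folds with age of the members ran between 2.00 and 5.44 in eop055 with a median of 2.38, against a median of 1.09 over all genes tested. In pep1-1 they ran between 0.257 and 1.246, with a median of 0.931. All 77 members had every eop055 library at 5 weeks above every eop055 library at 3 weeks, as did 37.8% of all genes tested. The label "only in eop055" needs a qualification. In 6 members (FPF1, PILS3, ARF11 and 3 without a name) every pep1-1 library at 5 weeks also lay above every one at 3 weeks, within the limit of 25%. That order was found in 35.8% of all genes. FPF1 had only 8 counts at 5 weeks and 3 at 3 weeks in pep1-1, and met the limit through the added 1 CPM. Without the added 1 CPM, the pep1-1 means of SERAT3;2, LBD19, CLE27, AGL71, ARF11 and SWEET10 were also more than 25% higher at 5 weeks. So were those of Aa_G4880h1 and Aa_G977230h1. SERAT3;2 averaged 0.677 CPM at 5 weeks and 0.412 CPM at 3 weeks in pep1-1, and CLE27 averaged 2.58 and 1.92 CPM. SWEET10 had only 2 counts against 1. In the opposite direction, 16 members had every pep1-1 library at 5 weeks below every one at 3 weeks, against 18.5% of all genes. All 16 combined both orders, which 1.77% of all genes did. The choice of members fixed these directions in part, and nothing is read from the shares.

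The largest fold among the members was that of SWEET10 (Aa_G424180h1), a sucrose exporter of the SWEET family. It stood at 7.05, 1.90 and 4.88 CPM in eop055 apices at 5 weeks, at 0, 0 and 0.0908 CPM in eop055 at 3 weeks, at 0, 0 and 0.219 CPM in pep1-1 at 5 weeks and at 0, 0 and 0.0708 CPM in pep1-1 at 3 weeks. Only the 5-week eop055 apices held more than scattered counts, and replicate 2 held the fewest of them. Over the group these were 165 counts against 1 in eop055 at 3 weeks, a ratio of 164 with an exact Clopper-Pearson 95% counting interval of 29.0 to 6510.

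AGL71 (Aa_G261140h1), a MADS-box gene related to SOC1 and active in the floral transition of Arabidopsis, stood at 4.79, 3.58 and 8.76 CPM in eop055 at 5 weeks, against 0.234, 0.237 and 0.454 CPM in eop055 at 3 weeks. In pep1-1 it stayed between 0.329 and 0.546 CPM at 5 weeks and between 0.212 and 0.531 CPM at 3 weeks. FPF1 (Aa_G169040h1), a small protein that promotes flowering in Arabidopsis, stood at 4.18, 4.72 and 7.02 CPM in eop055 at 5 weeks, against 0.390, 0.0791 and 0.273 CPM at 3 weeks. In pep1-1 FPF1 averaged 0.271 CPM at 5 weeks (8 counts) and 0.0794 CPM at 3 weeks (3 counts). Its pep1-1 fold of 1.178 rests on the added 1 CPM. AGL71 and FPF1 were near absent from the other 3 apex groups, and both were most abundant in replicate 3 of eop055 at 5 weeks.

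Another pair of genes of flower or apex development, TEL2 and SAP, were placed with FPF1 by role. SAP (Aa_G44230h1), whose loss disturbs inflorescences, flowers and ovules in Arabidopsis, stood at 5.74, 5.71 and 11.4 CPM in eop055 at 5 weeks, against 2.42, 4.19 and 3.00 CPM at 3 weeks, and between 1.88 and 3.73 CPM in the 6 pep1-1 apices. TEL2, an RNA-binding protein of the TERMINAL EAR1 type, was 2.498-fold higher at 5 weeks in eop055 and 0.877-fold in pep1-1.

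The floral loci left aside gave folds of 3.26 (AP3) to 8.29 (AP1) in eop055 where they met the rule, and those of SPL8 and LFY in pep1-1 were 0.628 and 0.736. SEP1 missed the level with 2.45 CPM in eop055 at 5 weeks, and AGL6 missed the pep1-1 limit at 1.30-fold. Of the age pathway list, SPL4, SPL5, SPL9 and FD carried names and none was a member: their folds in pep1-1 were 1.59, 2.76, 1.59 and 1.61, beside 5.05, 11.1, 2.86 and 2.95 in eop055. CRC and SEP3, the named floral organ genes, also fell outside: CRC was 1.82-fold higher at 5 weeks in eop055, and SEP3 reached 1.103 CPM there.

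**Figure D2:**
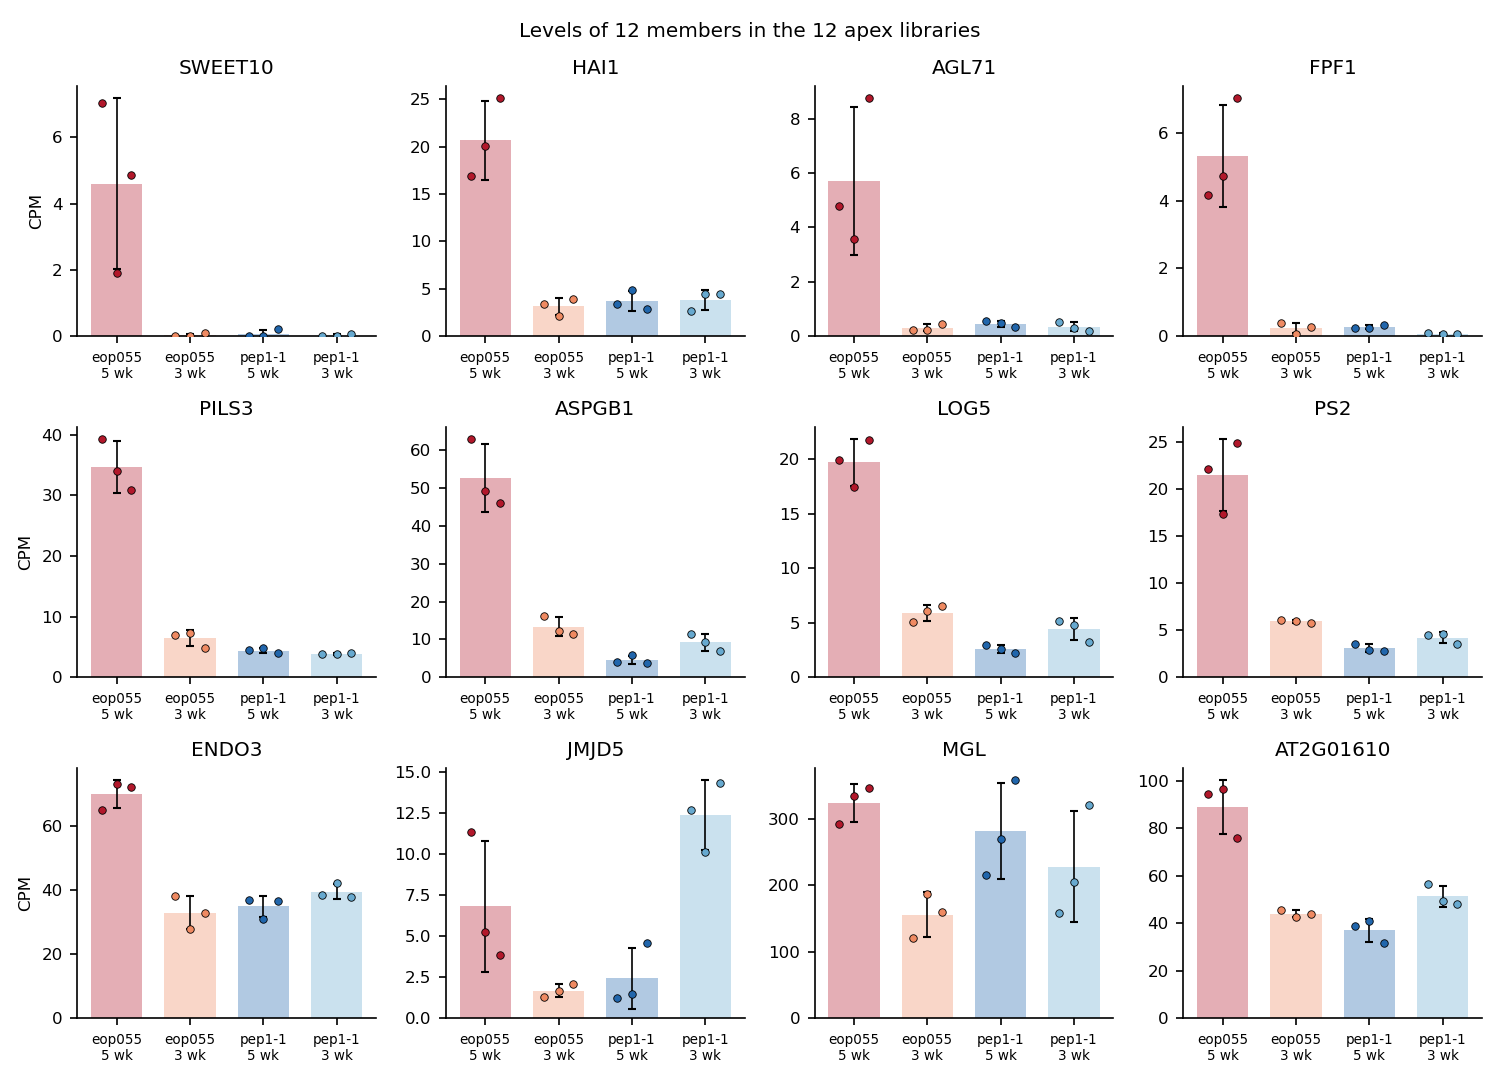
CPM of 12 members in each apex library (points, replicates 1 to 3 from left to right), with group means (bars) and SD (error bars, n = 3). In 10 panels the 5-week eop055 libraries lie above all others, and in those of JMJD5 and MGL they do not.

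Transcription and chromatin regulators made up 14 members, with folds of 2.01 to 5.13 in eop055. ERF12 (Aa_G430690h1), an ERF domain factor, stood at 14.9, 16.2 and 20.5 CPM in eop055 at 5 weeks, against 3.59, 4.83 and 6.09 CPM at 3 weeks. In pep1-1 it stood at 4.84, 4.76 and 5.15 CPM at 5 weeks, against 6.72, 5.06 and 5.24 CPM at 3 weeks, so the 3 other groups overlapped one another. ARF11, an auxin response factor, averaged 39.8 ± 3.39 CPM in eop055 at 5 weeks and 14.7 ± 2.58 CPM at 3 weeks (SD, n = 3 each). It lay close to the pep1-1 limit, at 1.246-fold.

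chr31 (Aa_G79340h1), a chromatin remodelling helicase homolog, stood at 15.2, 14.8 and 18.5 CPM in eop055 at 5 weeks, against 4.52, 3.56 and 3.54 CPM at 3 weeks. In pep1-1 it held 6.09, 6.64 and 6.03 CPM at 5 weeks, against 6.10, 5.93 and 4.88 CPM at 3 weeks. Every eop055 library at 3 weeks thus lay below every pep1-1 library of either age. AGO9, an ARGONAUTE protein that acts with small RNAs in Arabidopsis ovules, was spread widely in eop055 at 5 weeks, with 9.05, 5.79 and 13.96 CPM, against 2.42, 3.01 and 2.00 CPM at 3 weeks.

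Both ARID-HMG DNA-binding genes named among the members, AT1G76110 and HMGBD15, gave folds of 3.24 and 2.102 in eop055 and 0.889 and 0.678 in pep1-1. HMGBD15, which acts in pollen tube growth in Arabidopsis, was scarce, at 3.13, 3.27 and 6.11 CPM in eop055 at 5 weeks. The other regulators were the bHLH gene AT4G37850, LBD19, GRF8, the B3 gene AT5G57720, DOT5 and the SHI-related SRS7, with folds in eop055 of 2.90, 2.86, 2.28, 2.101, 2.07 and 2.01. SRS7 belongs to a family that shapes gynoecium and leaf in Arabidopsis.

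JMJD5 (Aa_G133240h1), a jumonji histone demethylase with a role in the clock, differed in pattern. It stood at 11.4, 5.25 and 3.88 CPM in eop055 at 5 weeks, against 1.33, 1.66 and 2.09 CPM at 3 weeks. In pep1-1 the order of the ages was the opposite, with 1.248, 1.502 and 4.605 CPM at 5 weeks, against 12.7, 10.1 and 14.4 CPM at 3 weeks. At 5 weeks the genotypes overlapped, and at 3 weeks every eop055 library lay below every pep1-1 library. Its 2.91-fold difference with age in eop055 therefore stood beside a 3-week level 0.201-fold that of pep1-1.

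Hormone and peptide genes made up 6 members with folds of 2.38 to 5.21 in eop055. HAI1 (Aa_G345470h1), a protein phosphatase that dampens abscisic acid signalling, stood at 16.9, 20.0 and 25.1 CPM in eop055 at 5 weeks, against 3.43, 2.14 and 3.91 CPM at 3 weeks. The 6 pep1-1 apices held between 2.65 and 4.88 CPM, overlapping with the 3-week eop055 apices.

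PILS3 (Aa_G111050h1), an auxin carrier of the PIN-LIKES family, stood at 39.3, 34.0 and 30.9 CPM in eop055 at 5 weeks, against 7.02, 7.36 and 4.91 CPM at 3 weeks. The pep1-1 apices were lower than both, at 4.45, 4.76 and 4.06 CPM at 5 weeks and 3.80, 3.80 and 4.03 CPM at 3 weeks. It was 1 of 3 named genes of the auxin list; GH3.3 gave 1.36-fold in eop055 and 0.468-fold in pep1-1, and PILS5 0.989-fold and 1.4996-fold.

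LOG5 (Aa_G118880h1), which releases active cytokinin from its nucleotide form, stood at 19.9, 17.4 and 21.7 CPM in eop055 at 5 weeks, against 5.07, 6.09 and 6.54 CPM at 3 weeks. In pep1-1 it stood at 2.96, 2.63 and 2.19 CPM at 5 weeks, against 5.13, 4.82 and 3.25 CPM at 3 weeks, so the ages separated in the opposite order. The other named gene of the cytokinin list, the response regulator RR5, gave 0.557-fold with age in eop055 and 1.43-fold in pep1-1. HLS1, the acetyltransferase homolog of the apical hook, another acetyltransferase-like gene, AT2G23060, and the peptide gene CLE27 gave folds in eop055 of 2.38, 2.98 and 2.46.

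Sugar, nitrogen, sulphur, phosphate and iron genes made up 10 members. ASPGB1 (Aa_G241830h1), an asparaginase, stood at 62.9, 49.2 and 45.9 CPM in eop055 at 5 weeks, against 16.1, 12.3 and 11.4 CPM at 3 weeks. In pep1-1 it stood at 4.14, 5.88 and 3.84 CPM at 5 weeks, against 11.3, 9.33 and 6.93 CPM at 3 weeks. The 4 groups did not overlap at all between genotypes or ages, and the 5-week ratio of eop055 over pep1-1, 9.55-fold, was the highest among the members.

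The phosphate genes PS2 and PAP17 are both known in Arabidopsis to be induced when phosphate is short. PS2 (Aa_G341720h1), a pyrophosphatase, stood at 22.2, 17.4 and 25.0 CPM in eop055 at 5 weeks, against 6.08, 5.94 and 5.81 CPM at 3 weeks, while pep1-1 apices held 3.59, 2.88 and 2.85 CPM at 5 weeks and 4.51, 4.59 and 3.54 CPM at 3 weeks. PAP17, a purple acid phosphatase, was scarcer, at 3.83, 5.48 and 7.77 CPM in eop055 at 5 weeks, against 1.48, 0.870 and 1.64 CPM at 3 weeks. The genotypes did not overlap at either age for PS2, whereas PAP17 overlapped between them at 3 weeks.

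TPPI, a trehalose-6-phosphate phosphatase, and GPT2, a plastid glucose-6-phosphate translocator, gave folds of 2.47 and 2.46 in eop055 and 1.18 and 0.782 in pep1-1. The iron transporter VIT1 gave 2.53-fold and 0.645-fold. The sulphur genes, the serine acetyltransferase SERAT3;2 and the sulphate transporter SULTR3;2, gave 2.42-fold and 2.18-fold in eop055.

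MGL (Aa_G277490h1), methionine gamma-lyase, had the highest mean of the members in eop055 at 5 weeks. It stood at 291, 334 and 346 CPM in eop055 at 5 weeks, against 120.3, 187 and 159.5 CPM at 3 weeks. In pep1-1 it held 216, 269.8 and 358 CPM at 5 weeks, against 158, 206 and 321 CPM at 3 weeks. The genotypes overlapped at both ages, and replicate 3 was the highest in both pep1-1 groups.

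Cell cycle and nucleic acid genes made up 3 members, and cell wall and phenolic genes 5. RNR2A, a small subunit of ribonucleotide reductase made in S phase, averaged 59.6 ± 12.2 CPM in eop055 at 5 weeks and 27.9 ± 4.32 CPM at 3 weeks (SD, n = 3 each). ENDO3 (Aa_G398580h1), a putative endonuclease, stood at 64.9, 72.9 and 71.9 CPM in eop055 at 5 weeks, against 38.1, 27.9 and 32.8 CPM at 3 weeks. Its pep1-1 apices held 37.0, 31.1 and 36.5 CPM at 5 weeks and 38.3, 42.1 and 37.9 CPM at 3 weeks. The D-type cyclin CYCD4;1 gave 2.24-fold in eop055 and 1.15-fold in pep1-1.

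AT2G01610, of the invertase and pectin methylesterase inhibitor family, had the smallest fold of all members. It averaged 89.1 ± 11.3 CPM in eop055 at 5 weeks and 44.0 ± 1.44 CPM at 3 weeks, beside 37.1 ± 4.85 CPM in pep1-1 at 5 weeks and 51.3 ± 4.42 CPM at 3 weeks (SD, n = 3 each). The sinapate glucosyltransferases UGT84A2 and UGT84A1 gave 2.495-fold and 2.36-fold in eop055 and 0.714-fold and 0.931-fold in pep1-1. ELI3-1, an elicitor-activated oxidoreductase, and the polygalacturonase homolog AT3G15720 gave 2.31-fold and 2.104-fold. Paralogs such as the UGT84A pair could share reads if nearly identical in sequence, which was not tested. The P-loop ATPase genes AT3G28580 and AT3G28570 gave 2.70-fold and 2.24-fold in eop055. In leaves AT3G28580 had 1981 counts in eop055 and 1409 in pep1-1, where AT3G28570 had 0 in both.

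Among the remaining named members, AT1G21540, an AMP-dependent ligase homolog, gave 3.57-fold in eop055 and 0.950-fold in pep1-1. AT5G09570, a small CHCH protein, and AT5G02230, a hydrolase homolog, gave 3.42-fold and 3.19-fold in eop055, with 0.870-fold and 0.595-fold in pep1-1. AT5G60760, a P-loop protein, and AT4G28570, a fatty alcohol dehydrogenase homolog, averaged 53.5 ± 5.55 and 62.9 ± 2.17 CPM in eop055 at 5 weeks, against 24.6 ± 0.999 and 29.2 ± 6.43 CPM at 3 weeks (SD, n = 3 each).

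The 25 members without a locus had folds of 2.04 to 4.12 in eop055. The largest was that of Aa_G92080h1, with 3.05, 1.45 and 4.88 CPM in eop055 at 5 weeks. It had 113 counts there and 0 in eop055 at 3 weeks. With 3 counts per group as the floor, that is at least 37.4-fold higher. Aa_G365760h1 and Aa_G188030h1 followed with 3.06-fold and 2.98-fold.

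**Figure D3:**
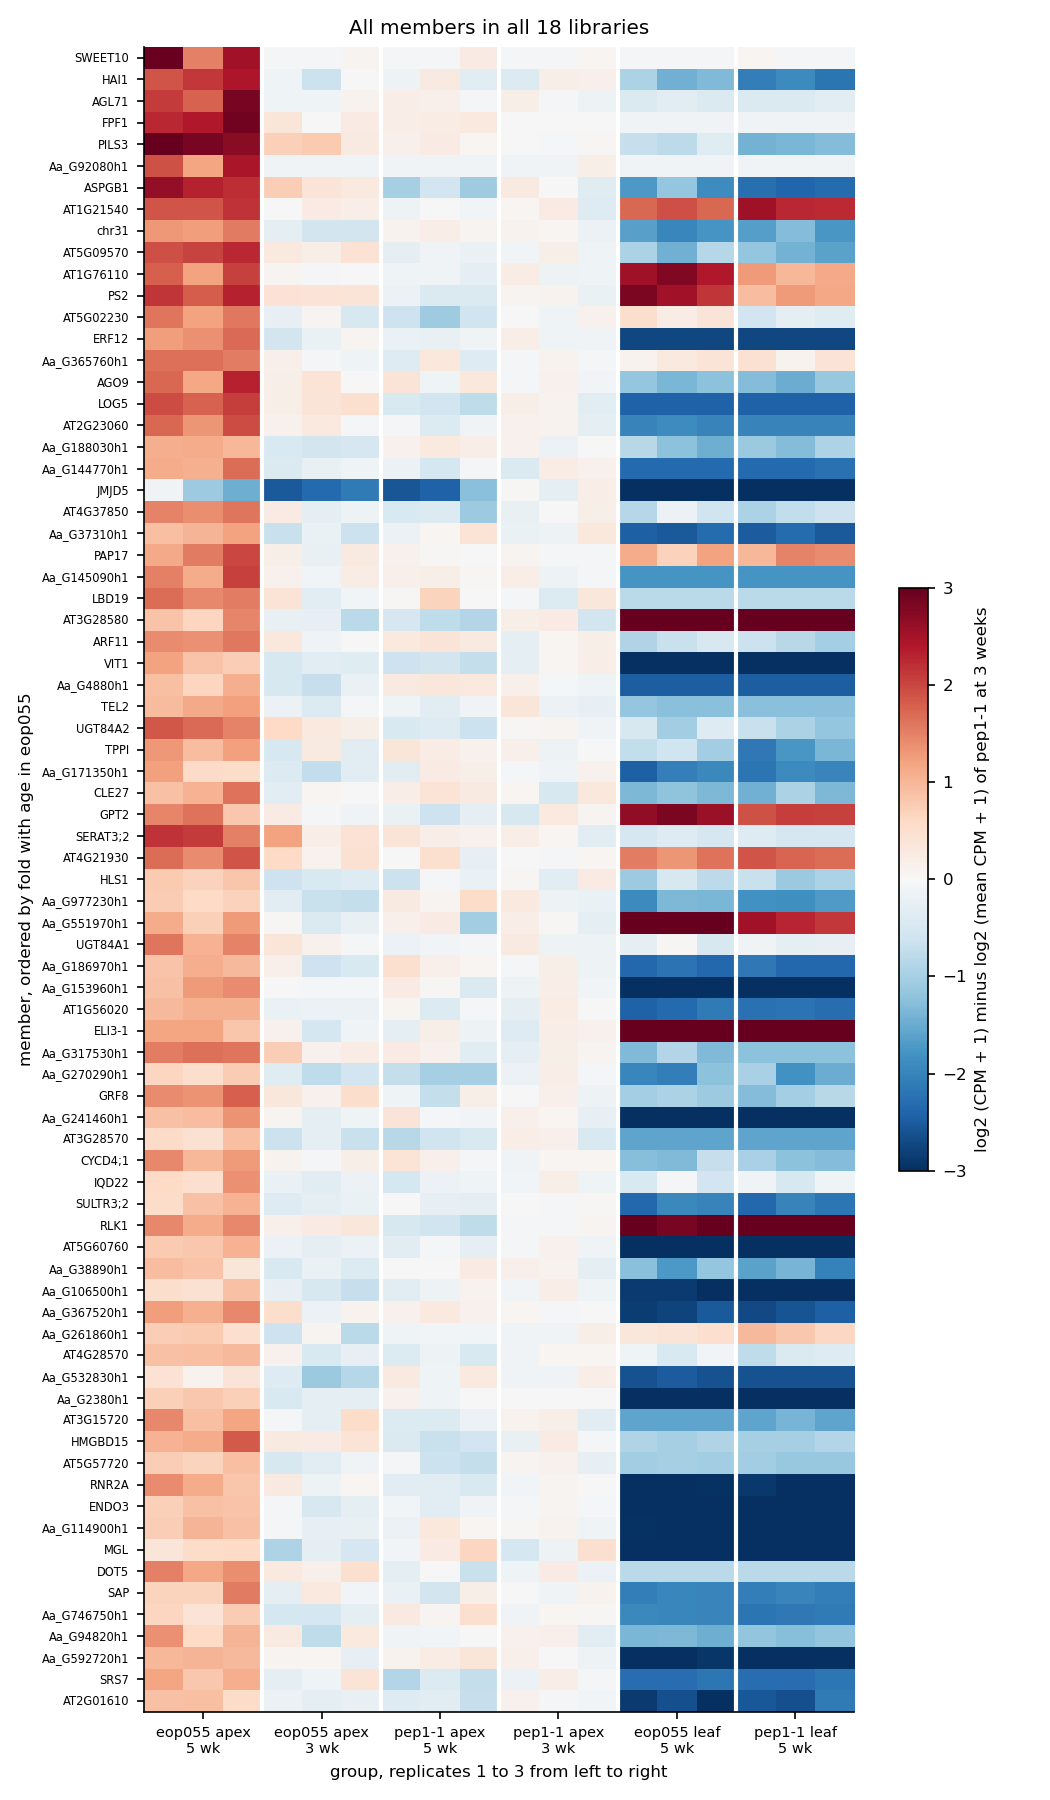
All 77 members (lines, ordered by fold with age in eop055) in the 18 libraries; colour is log2 (CPM + 1) minus log2 (mean CPM + 1) of pep1-1 apices at 3 weeks, limited to between -3 and 3. The 5-week eop055 apices are red for nearly all members, while the leaves range from dark blue (ENDO3, RNR2A) to dark red (ELI3-1, RLK1).

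The members fell into different patterns when the genotypes were set side by side at each age, again as a description. The rule limits the folds with age in both genotypes and so favours a high 5-week ratio of eop055 over pep1-1. Nothing is read from the shares below that involve this ratio. At 5 weeks, 58 members were at least 2-fold higher in eop055 than in pep1-1, against 1.16% of all genes tested. Over all 77 the ratios at 5 weeks ran between 1.12 and 9.55 with a median of 2.43. In 73 of 77 every eop055 library lay above every pep1-1 library, against 16.8% of all genes, and the exceptions were JMJD5, MGL, Aa_G532830h1 and Aa_G746750h1.

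At 3 weeks, 42 members had eop055 at more than 0.8-fold of pep1-1 but less than 25% above it, together with at least 2-fold at 5 weeks, a pattern of 0.705% of all genes tested. SWEET10, AGL71, FPF1, ERF12, HAI1 and ARF11 were among them. In these 6 the genotypes overlapped at 3 weeks. Of the 42, every eop055 library at 3 weeks lay above every pep1-1 library for RLK1 and HMGBD15, a combination of 0.0752% of all genes, and below for IQD22, AT5G60760, SULTR3;2 and AT2G01610, one of 0.0423%.

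Another 19 members were at most 0.8-fold in eop055 relative to pep1-1 at 3 weeks, against 3.75% of all genes. Their 5-week ratios had a median of 1.72, and 7 of them reached 2-fold. Among them MGL, Aa_G532830h1 and Aa_G746750h1 were less than 25% higher at 5 weeks. These 3 are 3.90% of the members, near the 3.13% of all genes tested with that pattern. The rule divides by the 3-week value of eop055 and so favours genes that were low there. PILS3, ASPGB1, PS2, LOG5, UGT84A2, SERAT3;2, AT4G21930, GRF8 and Aa_G317530h1 were at least 25% higher in eop055 already at 3 weeks, against 8.48% of all genes.

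**Figure D4:**
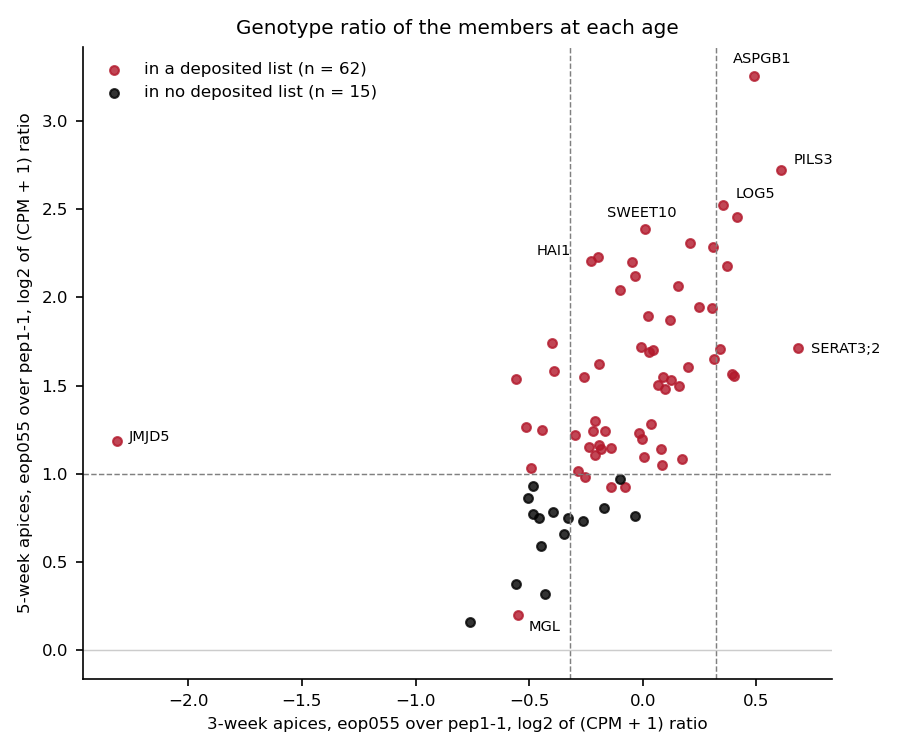
Ratio of eop055 over pep1-1 at 3 weeks (x axis) and at 5 weeks (y axis) for each member, as log2 of the ratio of (CPM + 1); vertical dashed lines mark 0.8-fold and 25% above pep1-1, and the horizontal dashed line 2-fold. Members on no deposited list (black) lie below the 2-fold line, with 5-week ratios of 1.12 to 1.96, and JMJD5 lies apart at 0.201-fold at 3 weeks.

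The authors' deposited list of genes higher in eop055 apices at 5 weeks held 60 of the 77 members, against 1.37% of all genes tested. That list compares 5-week apices that the rule also used, so nothing is read from this share. None of the 77 was on the authors' list of genes higher in eop055 apices at 3 weeks, and JMJD5 was on the list of lower ones. Those lists matched only 164 and 50 of the 34220 genes in the count table, so nothing is read from these numbers. The 15 members on no list had 5-week ratios of 1.12 to 1.96 and 3-week ratios of 0.591 to 0.978. None of these 15 carries a name, so the named members lean towards those far above pep1-1 at 5 weeks.

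Replicates of eop055 at 5 weeks did not carry the members equally. Replicate 3 was the highest of the 3 for 42 members, or 54.5%, against 34.2% of all genes tested. Replicate 1 was highest for 22 members and 40.0% of all genes, and replicate 2 for 13 members and 25.8%. IQD22, SAP, AGO9 and AGL71 were clear cases for replicate 3, and GPT2, ASPGB1, JMJD5 and RNR2A had it lowest. The coefficient of variation of the members in this group had a median of 16.2%, against 8.97% over all genes. The members were also scarcer in this group, with a median of 9.60 CPM against 18.9 CPM, and counting error is larger for scarce genes.

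To read the folds in libraries that did not choose the genes, the rule was applied with 1 replicate number left out of all 4 apex groups. Without replicate 1 it chose 90 genes, 61 of them members, whose median fold in eop055 was 2.41 in the choosing libraries and 2.11 in the libraries left out. The values without replicate 2 were 83 genes, 66 of them members, with 2.44-fold and 2.30-fold. Without replicate 3 they were 78 genes, 59 of them members, with 2.40-fold and 2.38-fold. In the libraries left out, 50, 58 and 52 of these genes again reached 2-fold, and 41, 44 and 42 also kept to the pep1-1 limit. All 90 and 83 genes chosen without replicates 1 and 2 were above 1-fold in the libraries left out, as were 74 of the 78 chosen without replicate 3, beside medians of 1.076 to 1.097 over all genes. Replicate numbers only name the libraries, and this is a description. The shares of all genes meeting these limits in the libraries left out were not computed, so nothing is read from the counts.

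The thresholds cut through a continuous range. Just inside the eop055 fold lay AT2G01610 at 2.00, SRS7 at 2.01 and Aa_G592720h1 at 2.04, and just outside ABF2, Aa_G109270h1 and Aa_G355720h1 at 1.98, 1.97 and 1.97. At the pep1-1 limit MGL, ARF11 and Aa_G977230h1 lay inside at 1.23, 1.246 and 1.246, and Aa_G51890h1, TZF5 and AT1G01250 outside, each at 1.27. At the level of 3 CPM, AT5G57720, Aa_G92080h1 and DOT5 lay inside at 3.03, 3.12 and 3.54 CPM, and AT1G09400, AT4G12290 and Aa_G363960h1 outside at 2.88, 2.85 and 2.70 CPM.

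Leaves gave the test that the rule did not touch: whether members also differed between eop055 and pep1-1 leaves at 5 weeks. Of the 77 members, 15 rose and 2 fell in eop055 leaves, by edgeR's quasi-likelihood test at a Benjamini-Hochberg adjusted p under 0.05 over 21275 genes. These are 19.5% and 2.60% of the members, against 15.0% and 11.6% of all genes tested. The share of rises was near that of all genes. However, 35 of the 77 members averaged under 0.5 CPM in leaves of both genotypes, against 7.98% of all genes tested. Such scarce members are harder to call in either direction, which limits both shares. In a fit of the leaf libraries alone, 39 members were tested, and 14 rose and 2 fell. No share of all genes is given for that fit. There edgeR's adjusted p was 0.0032 for PS2, 0.000165 for AT1G76110 and 0.0220 for TPPI. It was larger than in the fit of all 18 libraries for the calls tested in both, except AT3G28580 and GPT2. Replicates of eop055 leaves differed most, with a chi-square per gene between library pairs of 8.34 to 23.6. The other groups gave 1.49 to 5.70. In the fit of all 18 libraries the median log2 fold change was 0.14 for the members, with 11 at 0 counts entering as 0, and -0.01 for all genes.

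HAI1 stood at 1.51, 0.788 and 0.952 CPM in eop055 leaves, against 0.149, 0.291 and 0.0747 CPM in pep1-1 leaves, a rise of 2.73 ± 0.570 on the log2 scale (± SE; edgeR's adjusted p = 0.000946), and of 3.33 without pep1-1 leaf replicate 2. PS2 stood at 35.6, 28.7 and 21.98 CPM in eop055 leaves, against 8.96, 11.7 and 10.6 CPM in pep1-1 leaves, a rise of 1.58 ± 0.166 (edgeR's adjusted p = 5.72e-07). AT1G76110 held 23.4, 27.4 and 21.1 CPM in eop055 leaves, against 9.11, 7.28 and 8.14 CPM in pep1-1 leaves, a rise of 1.66 ± 0.170 (edgeR's adjusted p = 2.8e-07). In all of these the genotypes did not overlap, and HAI1 was scarce in leaves whereas PS2 and AT1G76110 were more abundant in eop055 leaves than in any apex group by mean.

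TPPI, AT5G60760 and PILS3 rose in leaves by 1.92 ± 0.411, 1.48 ± 0.236 and 1.42 ± 0.258 on the log2 scale, with edgeR adjusted p-values of 0.00115, 6.14e-05 and 0.000244. ASPGB1, AT5G02230 and GPT2 rose by 1.33 ± 0.352, 1.19 ± 0.246 and 0.80 ± 0.193, with edgeR adjusted p-values of 0.00771, 0.00086 and 0.00687. The smallest rises were those of AT3G28580, AT4G28570 and ELI3-1, by 0.64 ± 0.172, 0.43 ± 0.138 and 0.41 ± 0.112, with edgeR adjusted p-values of 0.0101, 0.0272 and 0.0107. The genotypes overlapped in leaves for AT4G28570. The other rises were those of Aa_G551970h1, Aa_G106500h1 and Aa_G114900h1. The last had 15 counts in eop055 leaves against 3 in pep1-1 leaves, a ratio of 5.20 with an exact 95% counting interval of 1.47 to 28.0. All 3 of the pep1-1 counts lay in replicate 3, and without that library the fitted log2 fold change was 5.89, a value that is no bound because the other pep1-1 leaf libraries were at 0. TPPI, at 28, 27 and 20 counts in eop055 leaves against 2, 7 and 13 counts in pep1-1 leaves, gave 2.63 without pep1-1 leaf replicate 3 and 1.48 without replicate 1.

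ENDO3 changed in the opposite direction to its apex difference. It stood at 1.08, 1.14 and 1.03 CPM in eop055 leaves, against 3.66, 2.77 and 3.21 CPM in pep1-1 leaves, and fell by 1.46 ± 0.225 on the log2 scale (edgeR's adjusted p = 4.13e-05). AT1G21540 stood at 6.40, 7.53 and 6.37 CPM in eop055 leaves, against 11.9, 9.76 and 9.48 CPM in pep1-1 leaves, and fell by 0.51 ± 0.175 (edgeR's adjusted p = 0.0313). Neither overlapped between genotypes. Both belong to 6 members (7.79% of the 77, against 4.27% of all genes tested) with 2 opposite orders in CPM. Their eop055 libraries all lay above those of pep1-1 in 5-week apices and all below them in leaves. The others of these 6 were not called in leaves. MGL, at 5.75, 11.3 and 6.74 CPM in eop055 leaves against 3.58, 2.70 and 3.96 CPM in pep1-1 leaves, did not pass the test (edgeR's adjusted p = 0.0576). It was, however, on the authors' deposited list of genes higher in eop055 leaves. That list held 9 members, and the list of lower ones held 1, ENDO3. The 2 leaf lists matched 1023 and 146 of the 34220 genes in the count table, and nothing is read from these numbers. Of the 3 named auxin genes, PILS3 and PILS5 rose in eop055 leaves, PILS5 by 1.13 ± 0.159 (edgeR's adjusted p = 1.59e-05), and GH3.3 fell by 2.01 ± 0.524 (edgeR's adjusted p = 0.00582). Of the 2 named cytokinin genes, RR5 rose by 1.04 ± 0.170 (edgeR's adjusted p = 0.000229) and LOG5 had 0 counts.

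Of the 17 leaf calls, 6 were lost when 1 leaf library was left out, and for AT1G21540 and Aa_G106500h1 some of these losses came with a larger fold. AT1G21540 was not called without pep1-1 leaf replicate 1 or 2 or eop055 leaf replicate 1 or 3, and AT4G28570 not without pep1-1 leaf replicate 1 or eop055 leaf replicate 1 or 3. ASPGB1 was lost without eop055 leaf replicate 2, and ELI3-1 without pep1-1 leaf replicate 1. Aa_G106500h1 was lost without any leaf library other than pep1-1 leaf replicate 2, with the replicate number as a block, with no filter and with DESeq2. Aa_G114900h1 was lost without pep1-1 leaf replicate 1 or 2 or eop055 leaf replicate 1. Over these losses edgeR's and DESeq2's adjusted p-values ran between 0.0513 and 0.158.

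**Figure D5:**
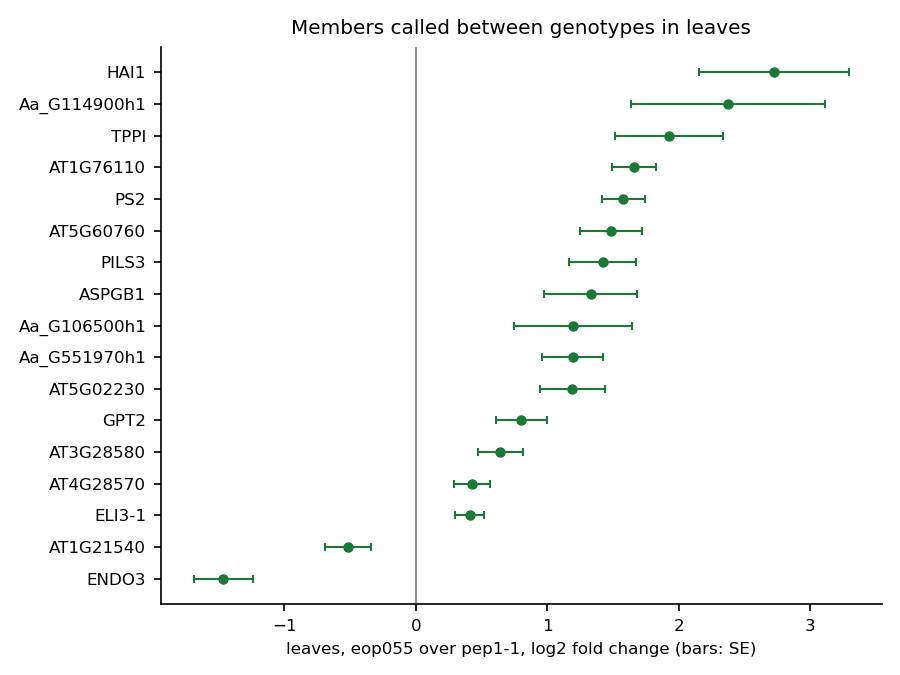
Log2 fold change of eop055 over pep1-1 leaves, with SE, for the 17 members called by edgeR's quasi-likelihood test at an adjusted p under 0.05. HAI1 lies furthest to the right at 2.73 and ENDO3 furthest to the left at -1.46.

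Many members were scarce in leaves. A mean under 0.5 CPM in both genotypes was found for 35 of 77, against 7.98% of all genes tested. FPF1, ERF12, LOG5, LBD19, VIT1, DOT5, AT3G28570 and 4 members without a locus had 0 counts in all 6 leaf libraries, as did 1.24% of all genes, which allows up to 0.0377 CPM over the 6 together. In contrast, 10 members had a higher mean in leaves of 1 or both genotypes than in eop055 apices at 5 weeks, against 30.2% of all genes. Among these, ELI3-1 averaged 225 ± 7.61 CPM in eop055 leaves and 182 ± 19.5 CPM in pep1-1 leaves, beside 7.78 ± 1.16 CPM in eop055 apices at 5 weeks (SD, n = 3 each). Levels in CPM carry differences in composition between leaves and apices, whose TMM factors ran between 0.651 and 0.730 in leaves and between 1.15 and 1.27 in apices.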

How the data were processed

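Per the labels' protocols, directional poly(A) libraries were read from 1 end. The authors deposited raw read counts per gene for 18 libraries. STAR, HTSeq 0.5.4p1, DESeq and DESeq2 are named in the submitters' processing notes. The authors' deposited lists of changed genes give, per the file headers, group means as a normalised signal, the fold ratio, the log2 fold change and an adjusted p-value. They served here for gene names and for counts of listed members. No source used here gives the genome build, the annotation or whether counting was stranded, so genes with near-identical copies or antisense partners are uncertain.

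CPM was each count over the library's sum of the 34220 gene entries. The 5 summary entries stayed out: 7.76 to 16.6% of reads lay outside genes and 2.01 to 3.60% were ambiguous. Leaf genotypes were compared in edgeR 4.0.16 (R 4.3.3), in 1 robust quasi-likelihood fit of 6 group means over 18 libraries, with TMM scaling and filterByExpr (21275 genes kept, all 77 members among them). Calls needed an adjusted p under 0.05 (Benjamini-Hochberg). The fit was first tested on simulated data. Intervals and floors (3 counts) cover counting error only. Figures were drawn with matplotlib 3.10.9.

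Of the Arabidopsis loci in the deposited lists, 1399 matched 1 count entry each. The members and the 18 gene lists were chosen with earlier results of these data known, and the role groups after the values were seen. Members were named if they had the 12 largest folds or 8 highest levels, were on a list, were among the 6 largest leaf calls in each direction, lay next to a threshold, or had the 3 largest folds without a locus. Other names were chosen after their values were seen. Alternatives covered scaling, filters, pseudocount, the median, the thresholds, DESeq2 1.42.0, the leaf libraries alone, the replicate number as a block and leaving out libraries.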

Additional observations from a re-analysis of the deposited data

Results flagged for a closer look

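For 16 members every pep1-1 apex at 5 weeks lay below every one at 3 weeks. In the same members every eop055 apex at 5 weeks lay above every one at 3 weeks. Both orders together were found in 1.77% of all genes tested. All 77 members had the eop055 order, and the pep1-1 order alone was that of 20.8% of the members and 18.5% of all genes. The difference was not tested because the rule used these libraries, and nothing is read from the shares. The folds with age of these 16 members in pep1-1 were 0.257 for JMJD5, 0.539 for Aa_G270290h1, 0.551 for ASPGB1, 0.595 for AT5G02230, 0.636 for SRS7 and 0.645 for VIT1. The next were 0.650 for AT4G37850, 0.656 for RLK1, 0.666 for LOG5, 0.678 for HMGBD15 and 0.714 for UGT84A2. The remaining values were 0.727 for AT2G01610, 0.775 for RNR2A, 0.795 for AT4G28570, 0.830 for IQD22 and 0.887 for ENDO3.

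For 6 members every eop055 apex at 5 weeks lay above every pep1-1 apex of that age, while every eop055 leaf lay below every pep1-1 leaf. They are 7.79% of the members, against 4.27% of all genes tested, and the rule favours a high 5-week eop055 apex, so nothing is read from that difference. The difference between tissues was not tested. Only ENDO3 and AT1G21540 were called in leaves, with log2 fold changes there of -1.46 and -0.51. Those of Aa_G261860h1 and AT4G21930 were -0.31 and -0.20 (edgeR's adjusted p = 0.162 and 0.469). That of AT2G01610 was -0.59 (edgeR's adjusted p = 0.129), with 1 eop055 and 1 pep1-1 leaf library both at 7.36 CPM after rounding. The orders are in CPM without TMM scaling, and such a near tie can overlap after scaling. TMM factors were 0.651 to 0.697 in eop055 leaves and 0.714 to 0.730 in pep1-1 leaves. The log2 fold change of Aa_G94820h1 was -1.71 (edgeR's adjusted p = 0.287). It rested on 1, 1 and 0 counts in eop055 leaves against 3, 2 and 3 counts in pep1-1 leaves.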

How the results depend on the processing

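The number of members depended on the thresholds: a fold minimum of 3 left 16 of the 77. TMM scaling gave 57 genes (50 shared), a pseudocount of 0.1 CPM 108 (69 shared), the median of 3 libraries 83 (62 shared), and a pep1-1 limit of 1.1 gave 59. Leaving out 1 apex library gave 70 to 87 genes. Leaving out 1 replicate number from all 4 apex groups, chosen after seeing the data, gave 78 to 90. With TMM scaling, all 77 members still had eop055 libraries that did not overlap between ages.

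In leaves, leaving out 1 library gave 12 to 15 members higher, 1 to 3 lower and a median log2 fold change of 0.042 to 0.20. The counts of members called changed by at most 1 higher and 0 lower under the other settings. The median moved to 0.28 with a filter of 50 counts (64 members), to 0.33 in a fit of the leaf libraries alone (39 members) and to 0.19 with DESeq2; the first 2 test fewer members, and the cause of the third was not tested. Of the 17 leaf calls, 11 were kept in every setting that tested them.

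Replicate numbers are shared by the leaf groups, but deviations of same-numbered libraries correlated at -0.01, 0.03 and -0.04, so the numbers do not pair them. With the replicate number as a block, 16 members were higher and 2 lower, with a median of 0.14. Members at a few counts in leaves have wide counting errors there.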
